A study of Arabidopsis thaliana with 13 samples.

Results

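PASPA3, SCPL48, EXI1 and DMP4 are 4 Arabidopsis genes that are used as transcript markers of developmental programmed cell death. They were chosen as the genes of the developmental cell death list that have an Affymetrix ATH1 probe set assigned to 1 gene only, and all 4 were measured, among 13513 probe sets of 1 gene and 22746 probe sets tested in all. PASPA3 (At4g04460) encodes an aspartic protease, SCPL48 (At3g45010) a serine carboxypeptidase-like protein, EXI1 (At2g14095, EXITUS1) a protein of unknown function, and DMP4 (At4g18425) a membrane protein of the DUF679 domain family. The other 5 genes of the list (BFN1, RNS3, MC9, CEP1 and DMP2) were not analysed here.

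Developmental cell death is a planned end of differentiation in plants, in which cells prepare hydrolases, release them from the vacuole and dismantle their contents. In the root it takes place in the root cap, whose oldest cells die as the cap is renewed, and in xylem vessels, which function only as empty cells. PASPA3 is widely used to mark root cap cells that are about to die, and the genes of developmental cell death are largely distinct from those induced when cells die after wounding, infection or DNA damage.

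The arrays compare rRBr, a Col-0 line that carries an RNA interference construct against the gene of the retinoblastoma-related protein RBR under the RCH1 promoter, which is active in the root meristem, with wild-type Col-0. Root tips were dissected at 4, 6 or 10 das, and each biological replicate gave 1 array. The labels explain das as days after stratification, and the study as days after sowing. Col-0 has 2, 1 and 3 arrays on these days and rRBr has 2, 2 and 3, so that 6 Col-0 and 7 rRBr arrays were compared. RBR itself was not analysed here, so that its silencing was not checked again. The study lists RBR among the genes that were lower in rRBr on these arrays. The silencing acts only where the RCH1 promoter is active, while the tips also hold the root cap. In such bulk RNA fewer cells of a type and less RNA per cell cannot be told apart.

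The values are log2 RMA values, in which a difference of 1 is a factor of 2. The array medians lay between 5.97 and 6.07. The 3 arrays that stood apart did so in genes of root hairs, which grow outside the meristem. They are the arrays of replicate 1 of Col-0 at 10 das, of rRBr at 6 das and of rRBr at 10 das, and their mean of EXPA7 and EXPA18 lay between 8.80 and 8.89, against 4.69 to 7.41 on the other 10 arrays. Values without these arrays are given beside the results they moved most. Of the 7 genes listed as markers of the root cap, RCPG, a polygalacturonase, and ACR4, a receptor kinase, had a probe set assigned to 1 gene. None of the 9 xylem genes had one. Genes without one were not analysed here, although the array can hold a probe set for them. The study lists BRN2, another of the 7, as higher in rRBr. RCPG lay between 8.03 and 10.75, above at least 75.8% of the probe sets of each array, and ACR4 between 4.74 and 5.38. A probe set was called at an adjusted p under 0.01 together with a change of at least 1.4 times, in limma, where p was adjusted by the method of Benjamini and Hochberg for all 22746 probe sets.

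None of the 4 genes was called between the lines over all days, where 0.418% of all probe sets were. PASPA3 and SCPL48 were higher in rRBr on all 3 days, with 6 of 7 rRBr arrays above the highest Col-0 array for either gene. The share of all probe sets with 6 such arrays was not counted. EXI1 was lower in the mean on each day, and DMP4 differed in opposite directions on different days. At 10 das SCPL48 stood at 2.33 times its Col-0 level and PASPA3 at 1.96 times.

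**Figure D1:**
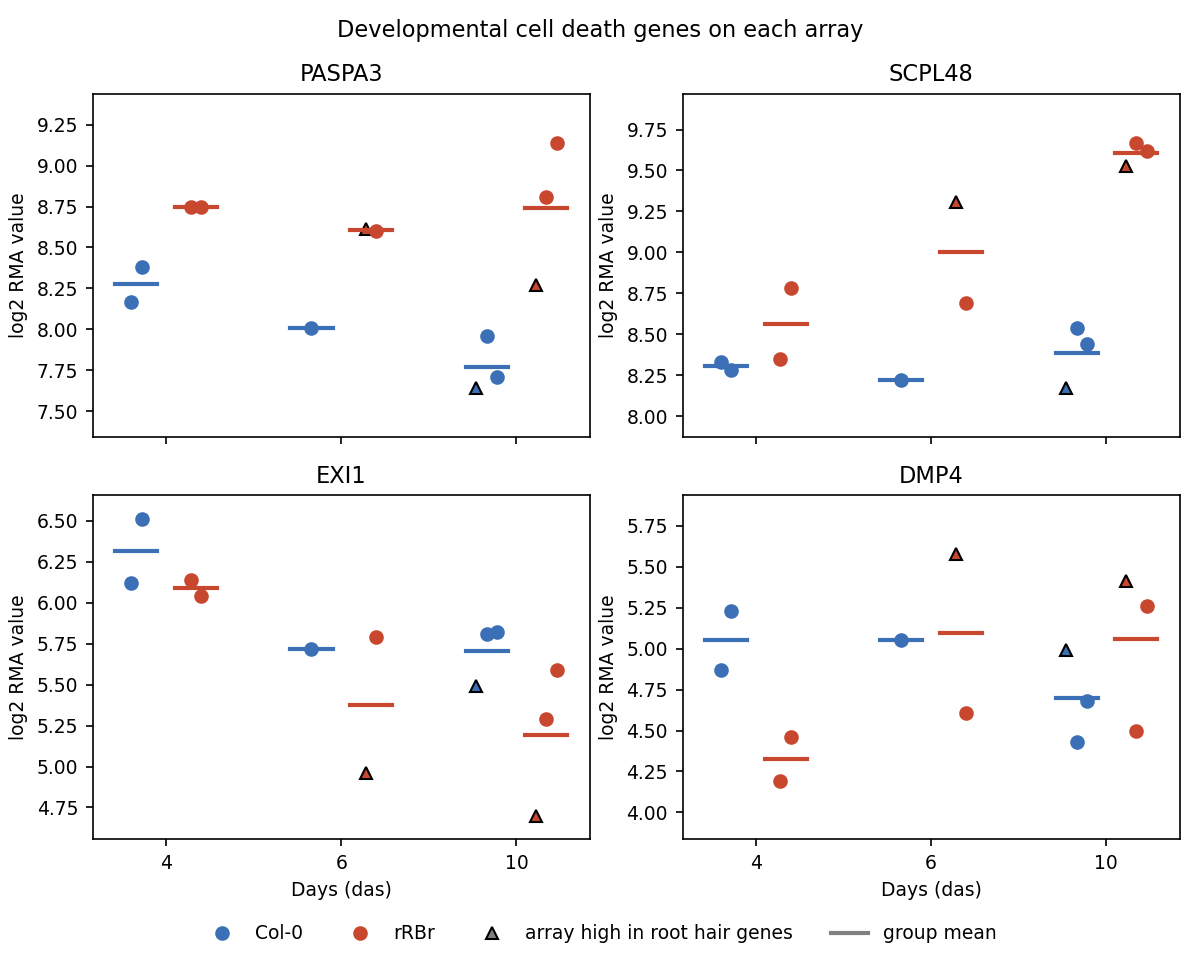
Log2 RMA value (vertical axis, the same span in each panel) of PASPA3, SCPL48, EXI1 and DMP4 on each of the 13 arrays against the day in das, with Col-0 in blue and rRBr in red. Each point is 1 array, triangles are the 3 arrays that are high in root hair genes, and bars are group means. The rRBr points of PASPA3 lie above the Col-0 points of the same day on all 3 days, and those of SCPL48 move away from Col-0 between 4 das and 10 das.

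PASPA3 in Col-0 had values of 8.17 and 8.38 at 4 das, 8.01 at 6 das, and 7.64, 7.96 and 7.71 at 10 das. In rRBr it stood at 8.75 and 8.75 on the first of these days, at 8.61 and 8.60 on the second and at 8.27, 8.81 and 9.14 on the last. The highest Col-0 array, at 8.38, exceeded only rRBr 10 das replicate 1, at 8.27, so that the lines overlapped by 1 array. On each single day all rRBr arrays were above all Col-0 arrays, as were 19.8% of all probe sets at 4 das, 27.1% at 6 das, where Col-0 has 1 array, and 5.28% at 10 das.

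The Col-0 mean of PASPA3 was 7.98 ± 0.28 (SD, n = 6), and the rRBr mean was 8.70 ± 0.26 (SD, n = 7). The difference was 0.73 (SE 0.14, 95% confidence interval 0.43 to 1.03), or 1.65 times, with an adjusted p of 0.0222 in limma. This is below 0.05, as for 1.17% of all probe sets, but not below the limit of 0.01, and PASPA3 was the only one of the 4 genes there. An exact permutation test of the labels within days, two-sided over 360 relabellings, gave p = 0.00278, the smallest that free exchange within days can give. When the lines were exchanged only within the 6 pairs of equal day and replicate number, without rRBr 6 das replicate 2, the exact test had 64 relabellings and a smallest possible p of 0.0313. PASPA3 was higher in rRBr in 6 of 6 pairs and reached that p.

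PASPA3 passed the limit without rRBr 10 das replicate 1 (difference 0.80, adjusted p 0.00963 in limma) and with arrays weighted by their quality (0.73, adjusted p 0.00635). Over the 13 alternatives of processing its difference ranged from 0.68 to 0.77 and its adjusted p from 0.00635 to 0.146. Without the 3 arrays high in root hair genes it was 0.76, with an adjusted p of 0.0153 in limma.

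SCPL48 was nearly level in Col-0, at 8.33 and 8.28 at 4 das, 8.22 at 6 das and 8.17, 8.54 and 8.44 at 10 das. In rRBr it stood at 8.35 and 8.78 on the first of these days, at 9.31 and 8.69 on the second and at 9.53, 9.67 and 9.62 on the last. The 3 rRBr arrays of 10 das were above every other array. Only rRBr 4 das replicate 1, at 8.35, was below the highest Col-0 array, at 8.54. Within 4, 6 and 10 das all rRBr arrays were above all Col-0 arrays, as for 19.8%, 27.1% and 5.28% of all probe sets.

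SCPL48 had a Col-0 mean of 8.33 ± 0.14 (SD, n = 6) and an rRBr mean of 9.14 ± 0.52 (SD, n = 7). Over all days the difference was 0.81 (SE 0.20), or 1.75 times, with an adjusted p of 0.0845 in limma. The exact permutation test within days gave p = 0.0111, two-sided, and that within pairs gave 0.0313, the smallest possible, with 6 of 6 pairs higher in rRBr. With the day as a factor the adjusted p was 0.0330 in limma, and over the 13 alternatives it ranged from 0.0289 to 0.301, the highest being that without the 3 arrays high in root hair genes (difference 0.66).

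EXI1 in Col-0 had values of 6.12 and 6.51 at 4 das, 5.72 at 6 das, and 5.49, 5.81 and 5.82 at 10 das. Its values in rRBr were 6.14 and 6.04 on the first of these days, 4.96 and 5.79 on the second, and 4.70, 5.29 and 5.59 on the last. The 3 rRBr arrays below the lowest Col-0 array were rRBr 6 das replicate 1 and rRBr 10 das replicates 1 and 2, and the lines overlapped on each day. The Col-0 arrays averaged 5.91 ± 0.36 (SD, n = 6) and the rRBr arrays 5.50 ± 0.54 (SD, n = 7).

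The difference of EXI1 over all days was -0.41 (SE 0.24), with an adjusted p of 0.633 in limma. The exact permutation test within days gave p = 0.0444, two-sided, that within pairs gave 0.0625, with 1 of 6 pairs higher in rRBr, and that over all 1716 relabellings without regard to the day gave 0.147. For the mean of the within-day differences, -0.36, the exact permutation test within days gave p = 0.117. Without the 3 arrays high in root hair genes, each the lowest of its group for EXI1, the difference was -0.23, with an adjusted p of 0.726 in limma.

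DMP4 in Col-0 had values of 4.87 and 5.23 at 4 das, 5.05 at 6 das, and 4.99, 4.43 and 4.68 at 10 das. Its values in rRBr were 4.19 and 4.46 on the first of these days, 5.58 and 4.61 on the second, and 5.41, 4.50 and 5.26 on the last. Of the rRBr arrays 3 were above the highest Col-0 array and 1 was below the lowest. The 3 arrays high in root hair genes were each the highest of their group for DMP4.

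DMP4 averaged 4.88 ± 0.28 (SD, n = 6) on the Col-0 arrays and 4.86 ± 0.54 (SD, n = 7) on the rRBr arrays, and the difference was -0.02 (SE 0.23, 95% confidence interval -0.51 to 0.47), with an adjusted p of 0.992 in limma and an exact permutation p of 0.953 within days and 0.969 within pairs. Without the 3 arrays high in root hair genes the difference was -0.25, with an adjusted p of 0.717 in limma. At 4 das both rRBr arrays were below both Col-0 arrays, as were 13% of all probe sets.

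By unadjusted p under 0.05 in limma, 2 of the 4 genes (PASPA3 and SCPL48) differed between the lines over all days, against 10.2% of all probe sets. The median difference of the 4 genes was 0.35, against -0.01 over all probe sets tested. A difference above 0 on each of the 3 days, as in PASPA3 and SCPL48, was found for 14.7% of all probe sets, and one below 0 on each day, as in EXI1, for 16.5%.

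**Figure D2:**
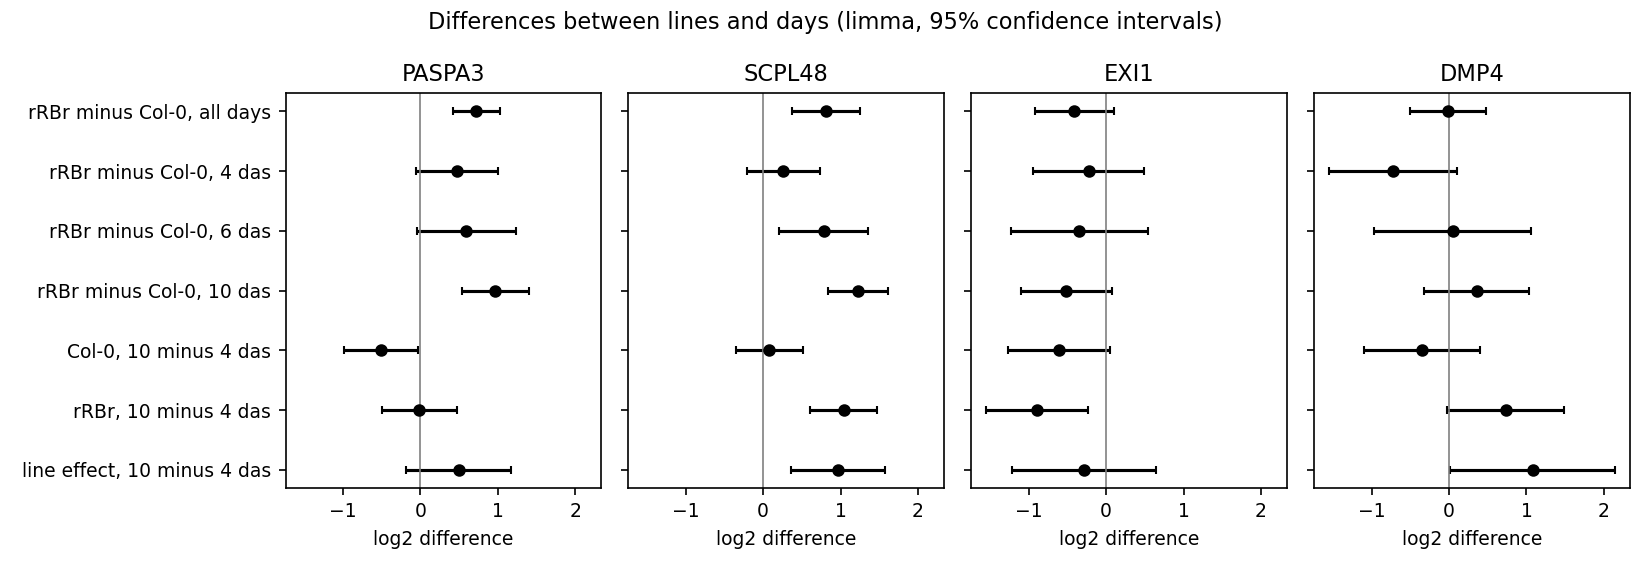
Log2 differences (horizontal axis) of the 4 genes in the 7 comparisons, with points for the limma estimates and lines for their 95% confidence intervals. The intervals of PASPA3 and SCPL48 lie above 0 over all days and at 10 das, and those of EXI1 and DMP4 hold 0 in the comparisons of the lines over all days and within each day.

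Within days, the estimates were compared in a fit of 6 groups by line and day. At 4 das none of the 4 genes was called, where 0.0044% of all probe sets were, and each adjusted p was 1 in limma. The differences were 0.48 for PASPA3 (SE 0.23), 0.26 for SCPL48 (SE 0.21), -0.23 for EXI1 (SE 0.32) and -0.73 for DMP4 (SE 0.37). With 2 arrays per line, single arrays moved SCPL48 to 0.475 (without rRBr replicate 1) or 0.045 (without rRBr replicate 2), and EXI1 to -0.42 (without Col-0 replicate 1) or -0.03 (without Col-0 replicate 2). None of the 4 had an unadjusted p under 0.05 in limma on that day, against 3.1% of all probe sets.

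At 6 das, where Col-0 has a single array whose spread is taken from the other groups, none of the 4 was called either, and 0.0044% of all probe sets were. SCPL48 was 0.78 higher in rRBr (SE 0.26, unadjusted p 0.0136 and adjusted p 0.926 in limma) and PASPA3 0.60 higher (SE 0.29). SCPL48 was the only one of the 4 with an unadjusted p under 0.05, against 4.35% of all probe sets. EXI1 was at -0.35 and DMP4 at 0.05. Without rRBr 6 das replicate 1, 1 of the arrays high in root hair genes, SCPL48 was at 0.47, and EXI1 and DMP4 changed sign, to 0.07 and -0.44. Without rRBr 6 das replicate 2 they were at 1.09, -0.76 and 0.53, while PASPA3 stayed between 0.59 and 0.60.

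At 10 das, with 3 arrays of each line, none of the 4 was called, where 0.286% of all probe sets were, and SCPL48 alone had an adjusted p under 0.05, as 0.805% of all probe sets did. SCPL48 averaged 8.38 in Col-0 and 9.61 in rRBr, a difference of 1.22 (SE 0.17, 95% confidence interval 0.84 to 1.61) with an adjusted p of 0.0139 in limma. PASPA3 averaged 7.77 and 8.74, a difference of 0.97 (SE 0.19, fold change 1.96) with an adjusted p of 0.0628. By unadjusted p under 0.05 in limma, 2 of the 4 genes differed on that day, against 7.8% of all probe sets. EXI1 was at -0.51 (SE 0.26, adjusted p 0.737) and DMP4 at 0.36 (SE 0.30, adjusted p 0.942). Without rRBr 10 das replicate 1 EXI1 was at -0.27 and DMP4 at 0.18, and DMP4 was at 0.635 without rRBr replicate 2 and at 0.22 without Col-0 replicate 2 of that day.

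Neither gene was called at 10 das, and other processing moved their adjusted p to either side of the limit. Without single arrays it ranged from 0.00610 to 0.0720 for SCPL48 and from 0.00698 to 0.245 for PASPA3 in limma. SCPL48 passed it with array weights (adjusted p 0.00158 in limma), with a trend and robust variance (0.00790), and when either rRBr array of 6 das (replicate 1 or replicate 2) or all 6 das arrays were left out (0.00610 each). PASPA3 passed it with array weights (difference 1.17, adjusted p 0.00193 in limma) and without rRBr 10 das replicate 1 (1.21, adjusted p 0.00698). From the arrays of 10 das alone the adjusted p was 0.0408 for SCPL48 and 0.341 for PASPA3 in limma.

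**Figure D3:**
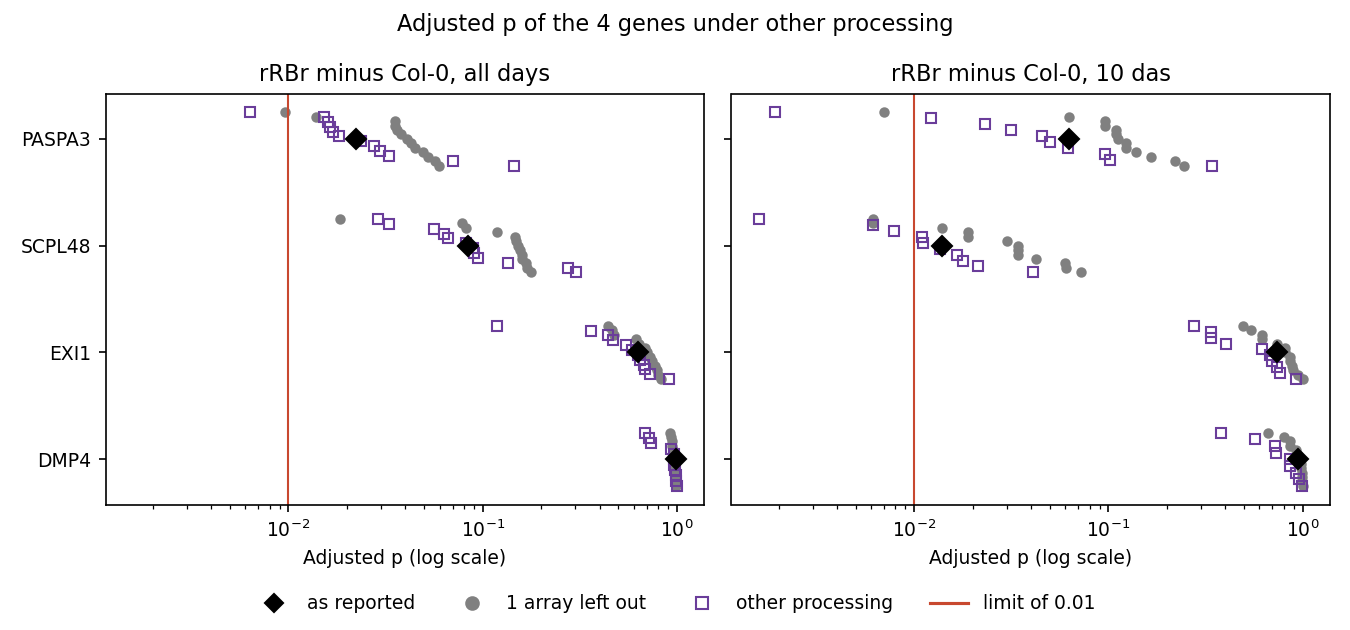
Adjusted p from limma (horizontal log axis) of the 4 genes for the line over all days (left) and at 10 das (right). Black diamonds are the values as reported, grey circles leave out 1 array, open squares are other choices of processing and the red line is the limit of 0.01. PASPA3 and SCPL48 lie on both sides of the limit at 10 das, and EXI1 and DMP4 stay to its right.

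The levels were also compared between 10 and 4 das within each line. In Col-0 PASPA3 averaged 8.28 at 4 das and 7.77 at 10 das, a difference of -0.51 (SE 0.21, unadjusted p 0.0409 in limma), and the arrays of these days did not overlap, as for 6.91% of all probe sets in that direction. EXI1 was 0.61 lower at 10 das (-0.61, SE 0.29), also without overlap. SCPL48 differed by 0.08 and DMP4 by -0.35. Single arrays moved both, SCPL48 to between 0 (without Col-0 10 das replicate 2) and 0.185 (without replicate 1), and DMP4 to between -0.53 (without Col-0 4 das replicate 1) and -0.17 (without replicate 2). None of the 4 was called, where 0.0308% of all probe sets were, and each adjusted p was 1 in limma. PASPA3 alone had an unadjusted p under 0.05, against 4.61% of all probe sets.

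In rRBr PASPA3 averaged 8.75 at 4 das and 8.74 at 10 das, a difference of -0.01 (SE 0.21), and the difference was 0.225 without rRBr 10 das replicate 1 and -0.21 without replicate 3. SCPL48 averaged 8.57 at 4 das and 9.61 at 10 das, a difference of 1.04 (SE 0.19, unadjusted p 3.73e-04, and adjusted p 0.164 in limma), without overlap of the arrays, as for 8.09% of all probe sets in that direction. EXI1 averaged 6.09, 5.38 and 5.19 on the 3 days, with a difference of -0.90 (SE 0.29, unadjusted p 0.0128 and adjusted p 0.668), again without overlap, as for 11.3%. DMP4 was 0.73 higher at 10 das (SE 0.33, adjusted p 0.958). In this comparison limma called none of the 4 and 0% of all probe sets, with an unadjusted p under 0.05 for 2 of the 4 genes and 5.26% of all probe sets.

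The change of the line difference between 10 and 4 das was tested as an interaction. It was 0.96 for SCPL48 (SE 0.27, 95% confidence interval 0.35 to 1.57, unadjusted p 0.00587), 1.08 for DMP4 (SE 0.47, unadjusted p 0.0474), 0.50 for PASPA3 (SE 0.30) and -0.29 for EXI1 (SE 0.41). When single arrays were left out, PASPA3 ranged from 0.295 (without rRBr 10 das replicate 3) to 0.73, and EXI1 from -0.49 (without rRBr 10 das replicate 3) to -0.04 (without rRBr 10 das replicate 1), with -0.09 without replicate 1 and -0.48 without replicate 2 of Col-0 at 4 das. Each adjusted p was 1 in limma, and 0.0044% of all probe sets were called, with an unadjusted p under 0.05 for 3.06% of all.

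Ordered by their means, the 6 groups of PASPA3 ran from Col-0 at 10, 6 and 4 das to rRBr at 6, 10 and 4 das. No neighbours among the first 4 overlapped. In rRBr the arrays of 10 das overlapped with those of 6 das and of 4 das. The rRBr arrays of 4 das (8.75 and 8.75) lay above those of 6 das (8.61 and 8.60). For SCPL48 the order was Col-0 at 6, 4 and 10 das and then rRBr at 4, 6 and 10 das, with overlap between neighbours except between Col-0 at 6 and 4 das and between rRBr at 6 and 10 das. For EXI1 the 2 groups of 4 das stood at the top and rRBr at 10 das at the bottom, and only Col-0 at 6 das and rRBr at 4 das did not overlap as neighbours. For DMP4 rRBr at 4 das was lowest, and Col-0 at 10 and 6 das were the only neighbours without overlap.

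The 4 genes did not vary as 1 group over the arrays. Of the 6 pairs, PASPA3 and SCPL48 had a Pearson r of 0.63 over the 13 arrays (permutation p 0.0230, 0.0691 after Benjamini and Hochberg) and a Spearman rho of 0.69 (permutation p 0.0120, adjusted 0.0721). It was -0.01 within Col-0 and 0.09 within rRBr, so that the relation did not hold within the lines, and 0.45 without the 2 arrays farthest from the median of PASPA3.

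SCPL48 and EXI1 ran in opposite directions, with an r of -0.70 (permutation p 0.00815, adjusted 0.0489) and a rho of -0.51 (permutation p 0.0823, adjusted 0.165). It was -0.76 within rRBr and 0.11 within Col-0, -0.77 without the 2 arrays farthest from the median, and -0.72 over the 10 arrays without those high in root hair genes. After the means of line and day were removed, the r of the deviations was -0.29 for this pair, 0.24 for PASPA3 and SCPL48 and -0.56 for EXI1 and DMP4, over 12 arrays. EXI1 and DMP4 had an r of -0.48 (permutation p 0.0965, adjusted 0.193) and a rho of -0.51 (permutation p 0.0809, adjusted 0.165), which went to 0.03 without the 2 farthest arrays and to 0.12 without the 3 arrays high in root hair genes. The r of the other 3 pairs lay between -0.03 and 0.31.

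PASPA3 and EXI1 had no relation past the threshold over all arrays, with an r of -0.03 (permutation p 0.923, adjusted 0.929) and a rho of -0.05 (permutation p 0.874, adjusted 0.889). Within the lines the r of PASPA3 and EXI1 was 0.90 in Col-0 and 0.51 in rRBr, which was not tested. After the means of line and day were removed, the r of their deviations was 0.73 over the 12 arrays in groups of more than 1. The arrays share replicate experiments, and this value is a description.

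The measured root cap genes were set against the 4 genes in 8 relations. The permutations exchanged the arrays freely across lines, days and replicates, so that shared differences between groups enter the p. RCPG and PASPA3 had an r of 0.79 (permutation p 4.80e-04, adjusted 0.00384) and a rho of 0.77 (permutation p 0.00276, adjusted 0.0221), and the r was 0.80 within Col-0, 0.65 within rRBr, 0.62 without the 2 arrays farthest from the median and 0.81 without the 3 arrays high in root hair genes. RCPG and SCPL48 had an r of 0.66 (permutation p 0.00505, adjusted 0.0202) and a rho of 0.68 (permutation p 0.0137, adjusted 0.0549), with 0.50 within Col-0, 0.68 within rRBr and 0.44 without the 2 farthest arrays. The r of RCPG with EXI1 was -0.00 and with DMP4 0.06, and ACR4 had an r between -0.45 and 0.27 with the 4 genes. Without the 3 arrays high in root hair genes the r of ACR4 with EXI1 went from 0.22 to -0.68 (permutation p 0.0304, adjusted 0.0811). After the means of line and day were removed, the r of RCPG over 12 arrays was 0.63 with PASPA3 and 0.48 with SCPL48. It was 0.53 with EXI1 and -0.28 with DMP4. That of ACR4 was 0.59 with PASPA3, 0.49 with SCPL48, 0.46 with EXI1 and -0.65 with DMP4.

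RCPG differed between the lines by -0.10 at 4 das, where PASPA3 and SCPL48 were higher in rRBr, and by 0.355 at 6 das. It averaged 0.64 more in rRBr over all days (SE 0.28, adjusted p 0.446 in limma) and 1.35 more at 10 das (SE 0.35, adjusted p 0.184), where Col-0 had 8.03, 9.55 and 9.30 and rRBr had 9.94, 10.23 and 10.75. Without Col-0 10 das replicate 1, the lowest array, these differences were 0.39 and 0.88, and without the 3 arrays high in root hair genes 0.46 and 1.07. ACR4 differed by -0.00 over all days and by 0.06 at 10 das. Neither was called, and their part in the values of the 4 genes was not tested.

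**Figure D4:**
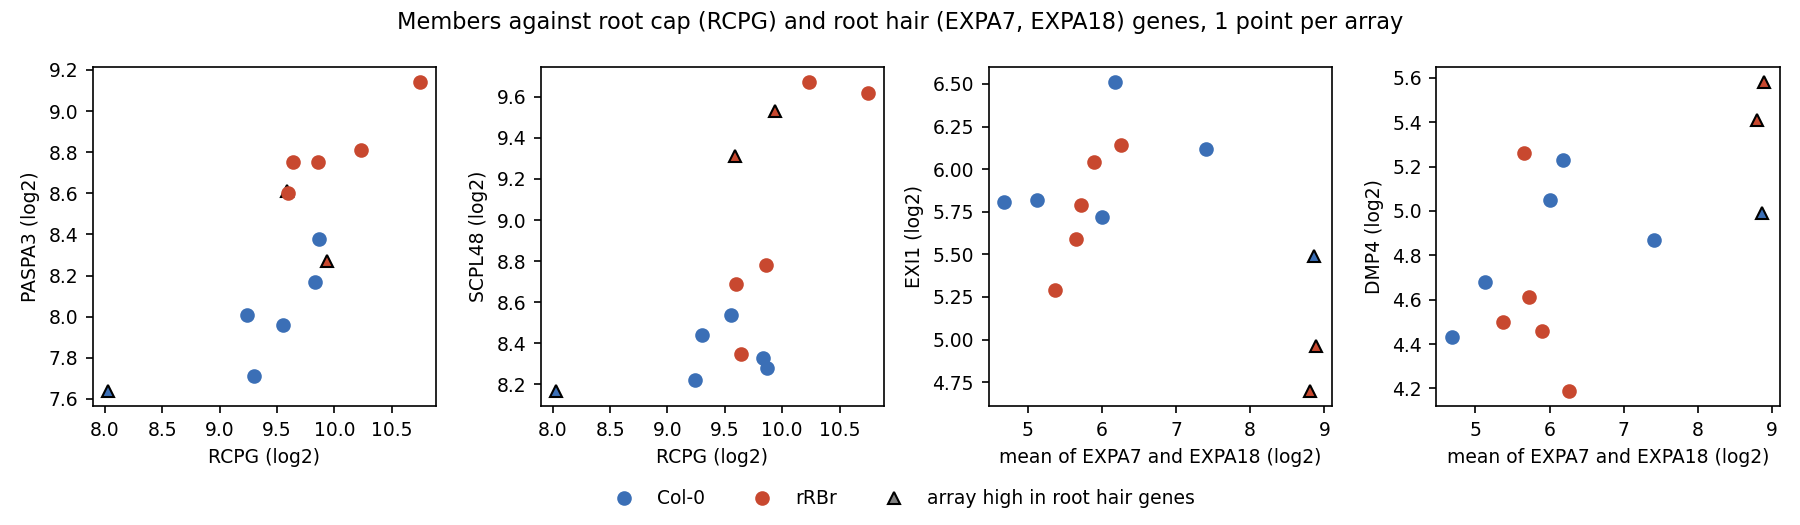
Log2 values of PASPA3 and SCPL48 against the root cap gene RCPG, and of EXI1 and DMP4 against the mean of EXPA7 and EXPA18 of root hairs, with 1 point per array. Col-0 is blue, rRBr is red, and triangles are the 3 arrays high in root hair genes, at 8.80 to 8.89. PASPA3 was higher on arrays with more RCPG in either line (r 0.80 in Col-0 and 0.65 in rRBr).

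The genes whose profiles over the 13 arrays were most like those of the 4 genes were taken among the probe sets of 1 gene with a comparable spread. At2g34340, At5g58784 and At2g37540 followed PASPA3 with an r of 0.97, 0.96 and 0.95 among 3138 candidates. Their differences between the lines over all days were 0.87, 0.73 and 0.57, and none was called over all days or at 10 das. At1g07280, At1g13370 and At1g23040 followed SCPL48 with an r of 0.97, 0.96 and 0.96 among 2002 candidates.

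Of the genes that followed SCPL48, 2 were called at 10 das, where SCPL48 was not, against 0.286% of all probe sets. They were picked by their likeness to SCPL48 on these same arrays, so that their calls are no separate result. At1g07280 rose by 0.89 (adjusted p 0.00307 in limma) and At1g13370 rose by 2.69 (adjusted p 6.19e-04). The call of At1g07280 was lost when Col-0 10 das replicate 2 (adjusted p 0.0136), or replicate 2 (0.0187) or replicate 3 (0.0192) of rRBr on that day, was left out. From the 10 das arrays alone neither was called (adjusted p 0.0628 and 0.0165), and with the replicate block without the 3 arrays high in root hair genes At1g07280 was not (0.0176). At3g49190, At1g52050 and At1g52060 followed EXI1 with an r of 0.95, 0.93 and 0.92 among 2652 candidates, and none of them was called over all days or at 10 das. For DMP4 the likeness was lower, with an r of 0.87 for At3g11690, 0.81 for At1g76460 and 0.79 for At3g52480 among 3599 candidates, and 0.81, 0.63 and 0.65 without the 3 arrays high in root hair genes.

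Relatives of the 4 genes and other proteases of cell death were then examined. PASPA1 (APA1) and PASPA2 (At1g62290), the vacuolar aspartic proteases closest to PASPA3, differed between the lines by 0.13 (adjusted p 0.534 in limma) and -0.08 (adjusted p 0.936), so that none of the 3 aspartic protease genes was called. DMP4 was the only 1 of 10 genes of its family with a probe set assigned to 1 gene.

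The serine carboxypeptidase-like family, hydrolases and acyltransferases of the vacuole and the secretory pathway, had 29 genes with a probe set of 1 gene. Over all days none was called, against 0.418% of all probe sets, with a median of -0.00 against -0.01 over all probe sets, and SCPL48 had the largest difference of the 29. SCPL25 and SCPL35 are named after their values were seen. SCPL25 was at 0.75 (SE 0.16, adjusted p 0.0332 in limma), and SCPL35 at -0.39 (SE 0.09, adjusted p 0.0543), the lowest of the family.

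At 10 das SCPL48 again had the largest difference of the 29, and SCPL20 was the 1 gene called, or 1 of 29, against 0.286% of all probe sets. SCPL20 was at 6.92, 7.20 and 7.04 in Col-0 and at 8.11, 8.04 and 8.32 in rRBr on that day. Its values did not overlap between the lines, as for 5.28% of all probe sets in that direction. It rose by 1.10 (SE 0.11), or 2.15 times, with an adjusted p of 0.00245 in limma, while at 4 das both lines lay between 7.21 and 7.33. The call was lost when Col-0 10 das replicate 3 was left out (adjusted p 0.0171), or replicate 2 (0.0108) or replicate 3 (0.0133) of rRBr on that day, from the 10 das arrays alone (0.0486) and with the replicate block without the 3 arrays high in root hair genes (0.0181). SCPL20 over all days was at 0.64 (SE 0.17, adjusted p 0.108).

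**Figure D5:**
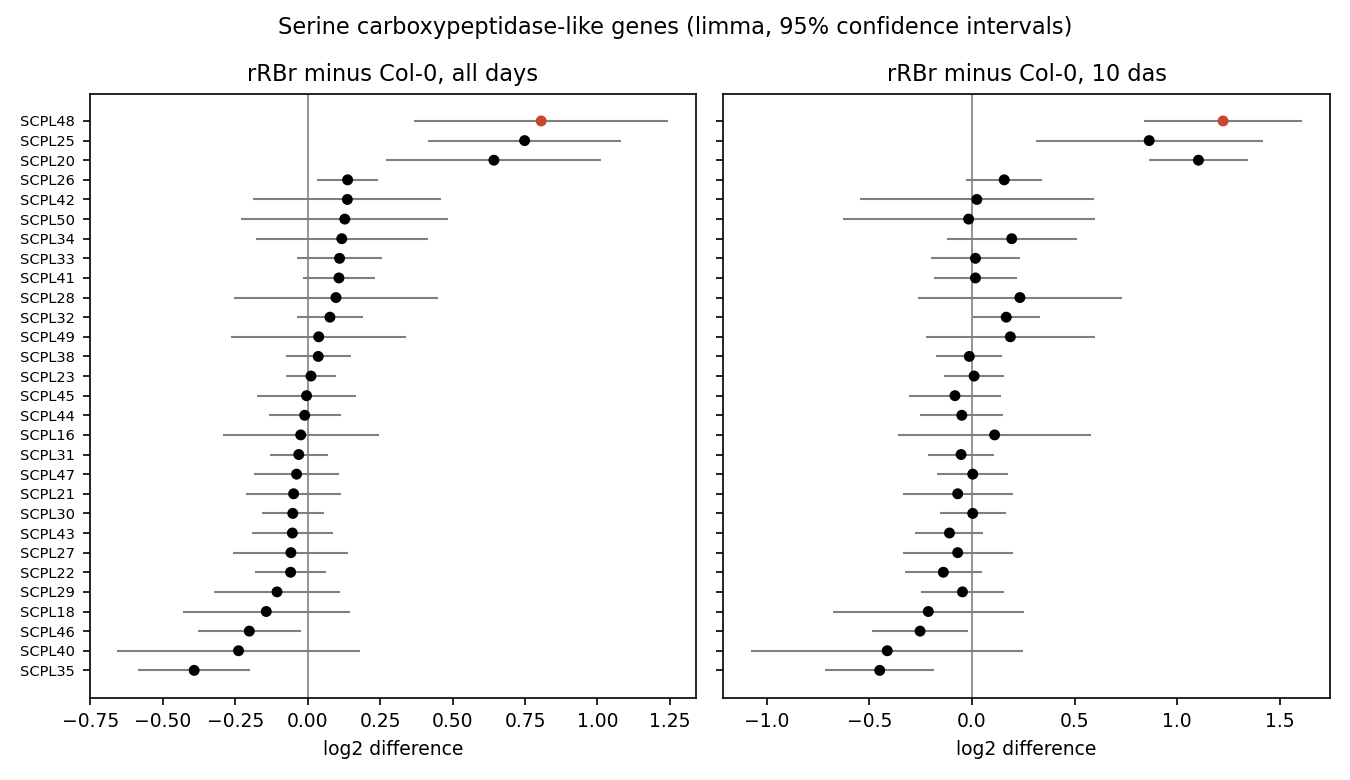
Log2 difference between rRBr and Col-0 (horizontal axis) of the 29 serine carboxypeptidase-like genes, over all days (left) and at 10 das (right), in the order of the left panel, with 95% confidence intervals from limma. SCPL48, in red, has the largest difference in both panels, 0.81 and 1.22, and most genes of the family lie near 0.

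The 4 vacuolar processing enzymes, proteases that mature other vacuolar proteins and act in cell death, were all measured, and none was called over all days (0.418% of all probe sets) or at 4, 6 and 10 das (0.0044%, 0.0044% and 0.286%). GAMMA-VPE was at 0.41 (SE 0.23, adjusted p 0.629 in limma) and ALPHA-VPE at 0.31 (SE 0.11, adjusted p 0.262), the largest differences of the list. The 3 arrays high in root hair genes were each the highest of their group for GAMMA-VPE, and without them GAMMA-VPE was at 0.16 and ALPHA-VPE at 0.26. At 10 das ALPHA-VPE was at 0.59 (SE 0.09, adjusted p 0.0245). The median of the list over all days was 0.23, against -0.01 over all probe sets.

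In 5 of the 13 gene lists no gene had its own probe set, and these genes were not analysed here. They were the 11 regulators of developmental cell death, such as the root cap transcription factor SMB, the 9 xylem genes, the 9 metacaspases, the 10 genes of stress-induced cell death and the 10 genes of the DNA damage response. The transcripts of the 4 genes can therefore not be set beside those of their regulators or of DNA damage here.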

How the data were processed

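RNA of root tips of rRBr and Col-0 was hybridized to 13 Affymetrix ATH1 arrays. The authors normalized them with RMA in the affy package, whose versions are not given in the sources used here, and deposited 1 column of log2 values per array, used here as they are. RMA quantile normalization makes values relative to the other genes of an array. Arrays give no counts, so that their number limits the precision.

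After 64 control probe sets were left out, 22746 were tested in R 4.3.3 with limma 3.58.1 (lmFit, eBayes), with p adjusted by Benjamini and Hochberg over all of them. As in the study's methods, the lines were compared over all days as 2 groups and called at an adjusted p under 0.01 and at least 1.4 times. A second fit used 6 groups by line and day, and its interaction was called at an adjusted p under 0.05. The single Col-0 array at 6 das was assumed to vary like the other groups. Permutation tests (100000 resamples for correlations) used scipy 1.17.1 in Python 3.11.15, and figures matplotlib 3.10.9. Those for correlations exchanged the arrays freely across lines, days and replicates.

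A platform table assigned 13513 probe sets to 1 gene, 503 to several and none to 8730, which are not named here. PASPA3, EXI1, DMP4, PASPA2 and RCPG were matched by locus, since the tables list them without these symbols. The 4 genes and all gene lists were chosen with earlier results of these data known. Named genes were the 4 genes, the called or otherwise the 2 most different members of related lists, measured root cap and xylem markers, and the 3 probe sets of most similar profile for each gene, whose SD over arrays was at least that of the gene divided by 2.

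The labels say that both lines were germinated together in repeated experiments. Group means were then removed. Arrays of the lines with the same replicate number correlated at 0.18 at 4 das and at 0.79, 0.60 and 0.63 at 10 das. Of unlike numbers at 10 das, Col-0 replicate 3 and rRBr replicate 2 correlated at 0.56, and Col-0 replicate 2 and rRBr replicate 3 at 0.41. These values set replicate 1 apart, but they separate replicates 2 and 3 only weakly. The numbers were taken to pair the samples, and a fit with the replicate block was run. The fits were tested on simulated data with independent noise and no effect of day or replicate. Changes that were equal on all days were added to a part of the 22746 probe sets. Over all days, 61.2% of the added changes of 1.5 times and 92.5% of those of 2 times were recovered, and at 10 das 25.4% and 67.2%. The real arrays share replicates, so that these shares do not carry over to them. Alternatives were other designs, array weights, other variance models, normalizations, filters and limits, and leaving out arrays. No sequence was used here, and a planned search of promoters was not run.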

Additional observations from a re-analysis of the deposited data

How the results depend on the processing

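Of the results for single genes and the count of called genes, those over all days gave the following under other processing. The count of genes called, 0, was 1 (PASPA3) with a limit of 0.05 on the adjusted p and no fold limit, and 1 with array weights, and it ranged from 0 to 1 when single arrays were left out. PASPA3 passed the limit in these settings, with a difference of 0.73 in either, and ranged from 0.65 to 0.81 without single arrays. SCPL48 ranged from 0.72 to 0.94, EXI1 from -0.52 to -0.28 and DMP4 from -0.14 to 0.095 without single arrays, and the sign of DMP4 turned without 7 of the 13. With the replicate block, which pairs arrays by number, PASPA3 was at 0.71 (adjusted p 0.0295 in limma) and DMP4 at 0.018, a change of sign, and the block changed no call of the 4 genes.

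Within days, DMP4 at 6 das turned to -0.021 after quantile normalization was repeated, to -0.76 with the replicate block without the 3 arrays high in root hair genes and to -0.44 without these arrays alone, and it ranged from -0.44 to 0.53 without single arrays. EXI1 at 6 das turned to 0.07 without these 3 arrays and ranged from -0.76 to 0.07. The change of PASPA3 in rRBr between 10 and 4 das turned to 0.17 with array weights, to 0.15 with the replicate block without the 3 arrays and to 0.225 without them, and ranged from -0.21 to 0.225. The cause was not tested. The replicate block without the 3 arrays, the day as a factor without them, the exchange within pairs and the values of RCPG and the vacuolar processing enzymes without arrays were chosen after seeing the data.

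DMP4 lay above 24.7% to 44.7% of the probe sets of an array and EXI1 above 34.7% to 56.0%, and no detection calls were used for these dim signals. A filter on a mean of at least 5 leaves DMP4 out. Without its single Col-0 array 6 das allows no comparison. The promoter search was not run.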
